A study of Homo sapiens with 23 samples.

Results

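The dose step set SUDHL5 cells given 100 nM CDK-TCIP1 for 2 h (3 libraries) against the same cells given 30 nM CDK-TCIP1 for the same time (4 libraries). These 7 libraries were chosen by their titles, out of 23 in the series, and they differed in dose alone as far as the labels say. SUDHL5 is an established human line of diffuse large B-cell lymphoma, and every culture held 0.1% DMSO, the vehicle. The rest of the series held 10 nM CDK-TCIP1 at 2 h (2 libraries), 30 nM CDK-TCIP1 at 4 h (3 libraries), 2 comparison compounds, called Neg1 and Neg2, at 30 nM (2 libraries of each at 2 h and at 4 h) and DMSO at 4 h (3 libraries). Poly(A) RNA was sequenced in paired ends. Nothing in the labels states that replicates came from separate cultures. The p-values then rest on the spread among libraries, part or all of which may be technical. No DMSO library of 2 h was used here, so Neg1 and Neg2 at 2 h give the level beside which the doses are set. The 7 libraries held 17531260 to 26373153 estimated counts.

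CDK-TCIP1 is a bivalent molecule that ties a ligand of BCL6 to a ligand of a transcriptional kinase. BCL6 is the repressor that keeps germinal centre B cells from differentiating and from undergoing apoptosis, and many lymphomas of this origin depend on it. The kinase CDK9 with cyclin T forms P-TEFb, which phosphorylates RNA polymerase II and its pausing factors so that paused polymerase enters the gene body. Free P-TEFb is held in check by the 7SK RNA with HEXIM and MEPCE proteins. Loss of CDK9 activity is known to lower short-lived mRNAs first, MCL1 and MYC among them.

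The defining B cell genes were present, with a summed level of 2614.2 to 2857.5 CPM (counts scaled to a library size of 1e+06 after TMM normalization) in the 100 nM libraries and of 2395.4 to 2577.3 CPM in the 30 nM libraries over 8 markers. The 11 T and NK markers summed to 132.3 to 149.0 CPM at 100 nM and to 108.9 to 121.3 CPM at 30 nM, mostly LCK and TRAC, and 9 myeloid markers to at most 2.51 CPM at 100 nM and 2.59 CPM at 30 nM. The 7 erythroid markers stayed under 1 CPM in sum. The 12 epithelial and fibroblast markers summed to 63.9 to 75.6 CPM at 100 nM and 57.5 to 66.0 CPM at 30 nM. Most of that was DCN, with means of 55.2 CPM at 100 nM and 51.0 CPM at 30 nM. Replicate 1 of the 100 nM group stood apart from its group. On the second principal component, which held 5.9% of the variance, it lay at 38.45, while the other 100 nM libraries lay at 8.57 and 15.61 and the 30 nM libraries between -2.57 and 4.07. Its 50 most abundant genes took 20.15% of its counts, against 18.42 and 18.74% in the other 100 nM libraries and 17.14 to 17.69% in the 30 nM libraries. The main counts of calls are therefore given both with it and without it.

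Raising the dose to 100 nM lowered more genes than it raised. Of 17743 genes tested, 788 were higher at 100 nM than at 30 nM (4.44%) and 1499 were lower (8.45%), at an adjusted p under 0.05 in the edgeR quasi-likelihood test with Benjamini-Hochberg adjustment over all genes. A gene is described as having risen or fallen only where it passed this test. Most changes were small. The median log2 fold change was 0.23 among the genes that rose and -0.41 among those that fell, and of 10086 genes averaging 2 or more in log2 CPM, 93.9% lay within 0.5 of 0. At least 2-fold changes numbered 42 upward and 78 downward. Without 100 nM replicate 1, 154 of 17640 genes rose (0.873%) and 685 fell (3.88%), of which 148 and 673 were called the same way with all libraries and 0 the opposite way. Replicate 1 itself, which had no part in that second fit, lay below all 4 of the 30 nM libraries in 670 of those 685 genes and above all of them in 147 of those 154, although the same 30 nM libraries served both times. It lay beyond both other 100 nM libraries in the same direction in 527 of the 685 (76.9%). The matching shares over all genes tested were not computed, so these counts have no baseline. Leaving out 30 nM replicate 3 gave 475 rises, and no other single 30 nM library moved either count by more than 1.5 times. Scaling by library totals in place of TMM moved the median of all genes to -0.10, from which 180 genes were higher and 2399 lower (6.98% of the calls higher, against 34.5% with TMM and 18.4% without replicate 1). Counts scaled by transcript length, which correct each gene for the mean length of the transcripts counted, gave 243 rises and 597 falls. Among 17661 genes also tested in the main fit, 1.36% rose and 3.38% fell with such counts. Of 114 called genes chosen by fixed rules, 52 kept their call, 61 lost it and 1 changed sign. Counts in the gene lists below are to be read beside the share of all genes in the same fit.

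**Figure D1:**
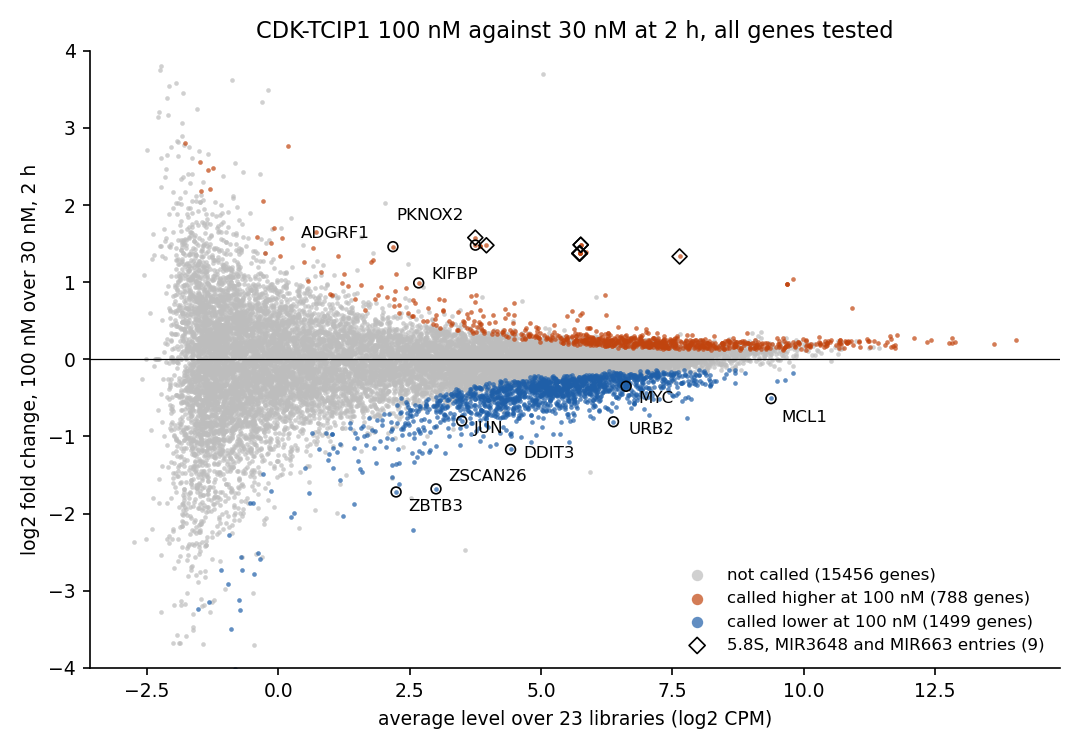
Log2 fold change of CDK-TCIP1 100 nM over 30 nM at 2 h (vertical axis) against the average level of the gene over all 23 libraries (horizontal axis, log2 CPM), with 1 point for each gene tested. Orange points (788) were called higher and blue points (1499) lower at 100 nM, most of them within 0.5 of 0, circles mark named genes, diamonds mark 9 entries of 5.8S rRNA, MIR3648 and MIR663, and 61 genes lie outside the plotted range of 4.

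The 2 largest rises among protein-coding genes that averaged 2 or more in log2 CPM and did not overlap between the groups were of PKNOX2 and ADGRF1, which were near silent with Neg1 and Neg2. PKNOX2, a homeodomain transcription factor (ENSG00000165495, chromosome 11, 125164687 to 125433389 on GRCh38 in GENCODE 29), had 74.2, 56.2 and 46.7 CPM at 100 nM, against 20.8, 19.9, 19.8 and 24.4 CPM at 30 nM. The log2 fold change was 1.48 ± 0.19 (± SE, edgeR adjusted p = 1.52e-05). That the groups did not overlap was a condition of the choice, here and for all of the largest rises and falls below. Its level was 0.557 ± 0.159 CPM with Neg1 and 0.199 ± 0.281 CPM with Neg2 (SD, n = 2 each) and 5.31 ± 0.548 CPM with 10 nM CDK-TCIP1 (n = 2), so that every step of dose had a higher mean than the one before. ADGRF1, an adhesion G protein-coupled receptor, had 25.5, 17.7 and 12.8 CPM at 100 nM, against 5.94, 5.98, 8.48 and 6.82 CPM at 30 nM. It rose by 1.46 ± 0.23 on the log2 scale, with no overlap, and 100 nM replicate 1 was the highest library of both genes.

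RHBDL1, which belongs to the rhomboid family of membrane proteases, was at much the same level with 10 nM CDK-TCIP1 (mean 2.76 CPM) as with Neg1 (3.35 CPM) and Neg2 (2.60 CPM). At the dose step it had 14.8, 9.43 and 9.79 CPM at 100 nM, against 4.44, 5.82, 4.89 and 5.89 CPM at 30 nM, a log2 fold change of 1.11 ± 0.21 without overlap. KIFBP, a kinesin-binding protein, rose by 0.99 ± 0.18 and KCND1, a potassium channel, by 0.77 ± 0.13. STUM had 174.9, 153.7 and 115.4 CPM at 100 nM and 74.1 to 89.7 CPM at 30 nM and was the most abundant of the 10 largest rises. Of these 10, CCDC78 (0.93 ± 0.25), ZDHHC11B (0.88 ± 0.24), STUM (0.83 ± 0.19) and MAMDC4 (0.78 ± 0.19) lost their call without 100 nM replicate 1, at edgeR adjusted p of 0.174, 0.217, 0.0601 and 0.186, and ZNG1F (0.82 ± 0.19) kept it. ZDHHC11B also lost its call without 30 nM replicate 1 or 2 (edgeR adjusted p = 0.0501 and 0.0557). ZNG1F averaged 14.8 CPM with Neg1, 16.3 CPM with Neg2 and 13.8 CPM at 10 nM, but 7.91 CPM at 30 nM. It had 12.5 to 15.6 CPM in the 100 nM libraries. The same 30 nM libraries entered its choice as a large rise, and 30 nM at 2 h was not tested against Neg1 and Neg2. With length-scaled counts its log2 fold change was 1.55, and it overlaps FRG1HP, with which it may share reads. KIFBP, KCND1, CCDC78, ZDHHC11B and MAMDC4 did not pass with length-scaled counts (edgeR adjusted p of 0.176 and 0.324 for the first 2).

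The 10 largest falls chosen in the same way were of genes at low levels, several of which encode DNA-binding proteins. ZSCAN26, a zinc finger protein with a SCAN domain (ENSG00000197062, chromosome 6, 28267010 to 28278224), had 1.00, 2.40 and 3.08 CPM at 100 nM, against 7.69, 6.67, 6.97 and 6.20 CPM at 30 nM. Its 100 nM libraries all lay far below its lowest 30 nM library, and the log2 fold change was -1.68 ± 0.21 (edgeR adjusted p = 1.2e-05). Its mean was 8.80 CPM with Neg1, 8.94 CPM with Neg2 and 9.22 CPM with 10 nM CDK-TCIP1, and it did not pass the test at 10 nM against Neg1 and Neg2 (log2 fold change 0.05). ZBTB3, a BTB zinc finger protein, had 2.17, 0.0585 and 2.46 CPM at 100 nM, against 4.16, 4.66, 5.88 and 6.04 CPM at 30 nM. Its fall of 1.72 ± 0.50 on the log2 scale drew on 100 nM replicate 2, without which the call was lost (edgeR adjusted p = 0.072), and it did not pass with length-scaled counts (0.11). PLPP6, a lipid phosphatase, fell by 1.62 ± 0.28, EFNA4, an ephrin ligand, by 1.52 ± 0.27, KBTBD7, a substrate adaptor of cullin ubiquitin ligases, by 1.36 ± 0.26 and PUS3, a pseudouridine synthase of tRNA, by 1.22 ± 0.26. ASTE1 and ZSCAN22 each had a log2 fold change of -1.22 ± 0.21. PEDS1-UBE2V1, a read-through of 2 neighbouring genes that shares reads with both, fell by 1.35 ± 0.38 and lost its call without 100 nM replicate 1 (edgeR adjusted p = 0.0914) and without 100 nM replicate 3 (0.0881). It had already been lower at 10 nM than with Neg1 and Neg2, by 1.81 on the log2 scale. Its mean was 1.73 CPM at 10 nM, 4.65 CPM at 30 nM and 1.82 CPM at 100 nM. PEDS1-UBE2V1 and PUS3 did not pass with length-scaled counts.

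Promoters of the 2 largest rises and the 2 largest falls that have an entry in the RefSeq promoter table (assembly GRCh38.p14) are printed, to set side by side the sequence at genes that moved in opposite directions. Each runs 5′ to 3′ on the strand of the gene, from 250 bases before to 50 bases after its start, and capitals mark CCAAT on either strand, the one motif of those searched that any of them held. The others were TATAAA, TTCNNNGAA and GAANNTTC. ADGRF1 lies at chr6:47042283-47042582 on the minus strand, RHBDL1 at chr16:675421-675720 on the plus strand, ZBTB3 at chr11:62754111-62754410 on the minus strand and PLPP6 at chr9:4662044-4662343 on the plus strand.
ADGRF1: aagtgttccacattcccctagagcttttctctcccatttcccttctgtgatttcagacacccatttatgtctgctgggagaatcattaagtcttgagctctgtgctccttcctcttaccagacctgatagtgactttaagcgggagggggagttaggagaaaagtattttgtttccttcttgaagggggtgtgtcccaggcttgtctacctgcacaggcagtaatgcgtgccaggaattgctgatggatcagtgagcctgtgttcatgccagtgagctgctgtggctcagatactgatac
RHBDL1: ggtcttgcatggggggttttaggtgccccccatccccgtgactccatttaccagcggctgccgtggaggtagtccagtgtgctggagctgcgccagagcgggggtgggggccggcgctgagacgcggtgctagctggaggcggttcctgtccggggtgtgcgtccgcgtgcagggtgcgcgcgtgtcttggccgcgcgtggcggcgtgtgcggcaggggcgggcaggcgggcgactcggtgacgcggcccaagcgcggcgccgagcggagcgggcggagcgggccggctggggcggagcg
ZBTB3: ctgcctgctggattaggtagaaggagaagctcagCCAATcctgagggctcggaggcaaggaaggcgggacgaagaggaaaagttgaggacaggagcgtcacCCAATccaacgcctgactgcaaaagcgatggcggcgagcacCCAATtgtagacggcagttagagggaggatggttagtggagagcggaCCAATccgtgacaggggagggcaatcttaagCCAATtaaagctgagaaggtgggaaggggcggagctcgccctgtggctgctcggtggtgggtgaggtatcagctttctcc
PLPP6: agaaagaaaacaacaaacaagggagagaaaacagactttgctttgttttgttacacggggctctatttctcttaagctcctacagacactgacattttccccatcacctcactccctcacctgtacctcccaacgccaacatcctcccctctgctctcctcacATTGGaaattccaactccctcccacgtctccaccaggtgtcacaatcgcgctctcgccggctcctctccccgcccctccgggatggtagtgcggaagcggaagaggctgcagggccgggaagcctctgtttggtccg
ZBTB3 held CCAAT 5 times and PLPP6 once, and neither gene that rose held it. Over all genes CCAAT was no rarer in genes that rose than in genes that fell. It was in 42.1% of 618 promoters of genes that rose, 40.6% of 1214 promoters of genes that fell and 37.0% of 11472 promoters of tested genes, and in 35.7% of all 27305 promoters of the table. TTCNNNGAA was in 4.69% of the promoters of genes that rose, 6.26% of those of genes that fell and 6.59% of those of all tested genes. TATAAA was in 5.99, 5.11 and 6.27% of the same sets in the same order, and GAANNTTC in 6.31, 4.12 and 4.80%.

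**Figure D2:**
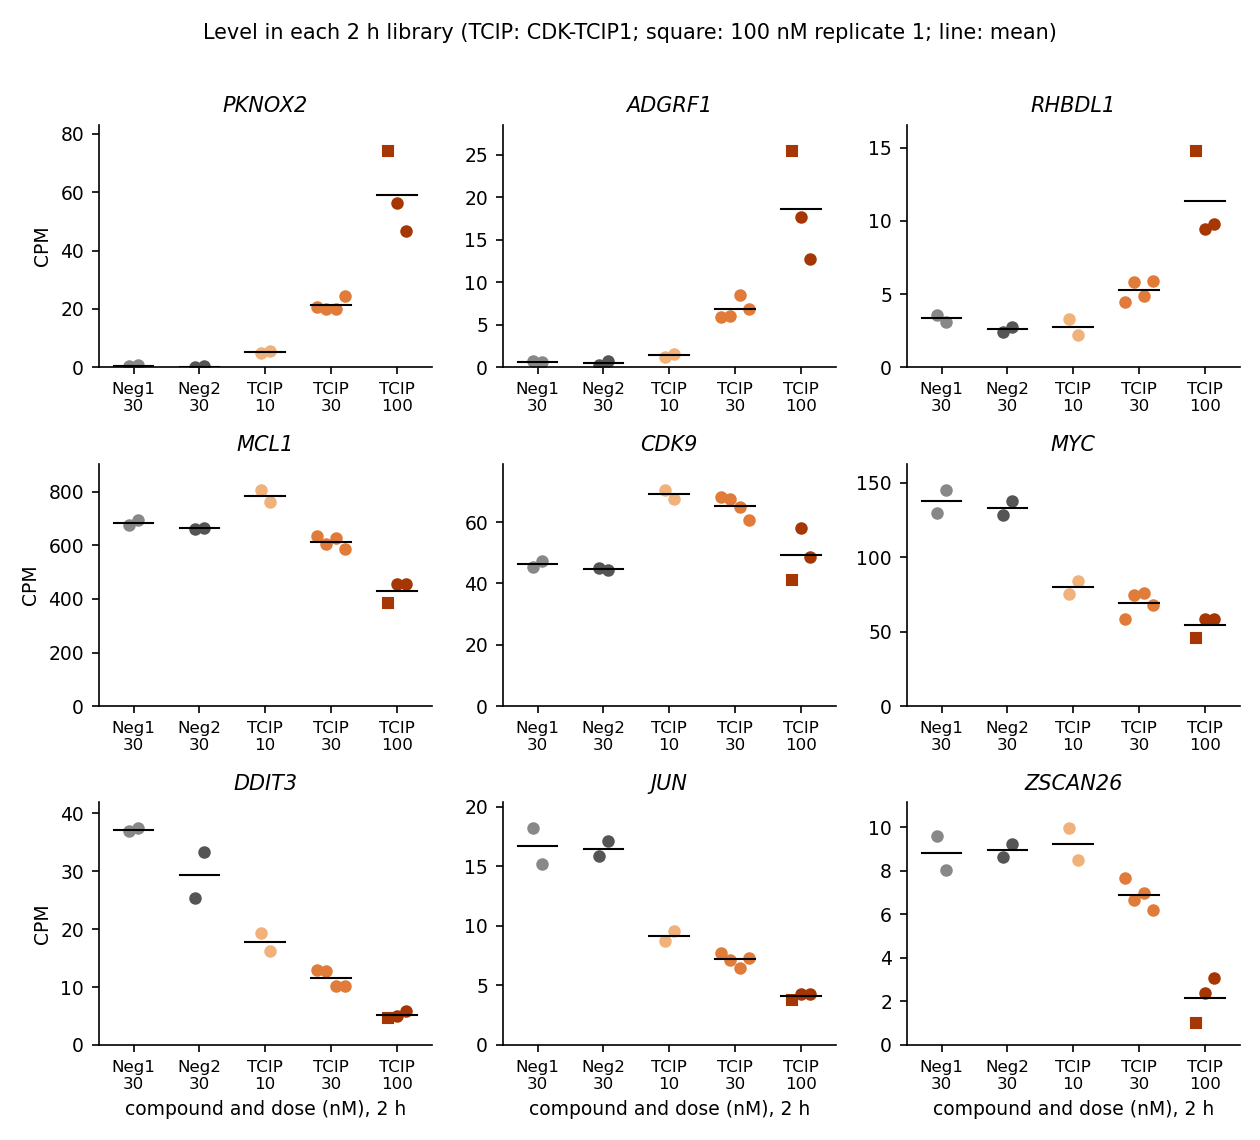
Level in CPM (vertical axes, from 0) of 9 genes in each 2 h library, with Neg1 and Neg2 at 30 nM and CDK-TCIP1 at 10, 30 and 100 nM from left to right, the mean as a line and 100 nM replicate 1 as a square. PKNOX2 and ADGRF1 climb with dose, MCL1 and CDK9 are highest at 10 nM, DDIT3 and JUN decline with dose, and ZSCAN26 is lowest at 100 nM.

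Entries of 5.8S rRNA and MIR3648 in the ribosomal DNA repeat on chromosome 21 rose about as much as PKNOX2, as did entries of MIR663 on chromosomes 20 and 2. They were singled out after their values had been seen. The 4 tested entries of 5.8S rRNA on chromosome 21 (RNA5-8SN1, RNA5-8SN2, RNA5-8SN3 and 5_8S_rRNA) each rose by 1.37 ± 0.13 on the log2 scale, and both entries of MIR3648, which lies upstream of the mature rRNAs in the same repeat, rose by 1.48 ± 0.13 (edgeR adjusted p = 1.04e-07). MIR663A and its host MIR663AHG on chromosome 20 rose by 1.58 ± 0.15 and 1.33 ± 0.13, and MIR663B on chromosome 2 by 1.48 ± 0.16. The 4 entries of 5.8S rRNA had the same values as each other, as did the 2 of MIR3648, and reads from such copies are split between them in the authors' quantification, so the 9 are not separate observations. Together they held 2701.1, 2233.2 and 1886.5 CPM at 100 nM, against 820.3, 820.6, 865.2 and 968.8 CPM at 30 nM. The lowest 100 nM library was well above the highest 30 nM library. The mean sum over the 9 was 39.4 ± 7.10 CPM with Neg1 and 23.4 ± 7.70 CPM with Neg2 (SD, n = 2 each), 266.2 ± 17.1 CPM at 10 nM (n = 2), 868.7 ± 70.0 CPM at 30 nM (n = 4) and 2273.6 ± 408.8 CPM at 100 nM (n = 3). Of these sums, MIR663AHG on chromosome 20 alone held a mean of 808.2 CPM at 100 nM and 320.8 CPM at 30 nM. With 8 further entries that lie in or near the chromosome 21 repeats, the sum over 17 entries was 8089.8 ± 1460.4 CPM at 100 nM. At 30 nM it was 3802.1 ± 245.5 CPM. It was already 1651.7 ± 405.8 CPM with Neg1, 1289.3 ± 300.6 CPM with Neg2 and 2421.8 ± 2.29 CPM at 10 nM. The most abundant of the 8 were 3 long non-coding entries with the same values as each other, which rose by 0.98 ± 0.11 each. Of the 17, 14 rose and 0 fell, a count that includes such copies. All 9 stayed called without 100 nM replicate 1, and their fold changes were 1.24 to 1.48 with library totals. Selection for poly(A) removes most rRNA, so these values describe what remained after it, and whether the libraries differed in that step was not tested.

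Genes of P-TEFb and of its 7SK inhibitor fell or did not pass the test. Of 9 tested members, 4 fell (44.4%, against 8.45% of all genes) and 0 rose. Without 100 nM replicate 1, 3 fell (33.3%, against 3.88%). CDK9 had 41.0, 58.2 and 48.7 CPM at 100 nM, against 68.2, 67.5, 64.9 and 60.6 CPM at 30 nM. All 100 nM libraries lay below the 30 nM libraries, and the log2 fold change was -0.41 ± 0.08 (edgeR adjusted p = 0.00199), or -0.38 with length-scaled counts, which did not pass (0.098). At 10 nM it had averaged 69.1 CPM, above 46.2 CPM with Neg1 and 44.7 CPM with Neg2, a rise of 0.60 on the log2 scale. CCNT1, the cyclin T1 partner of CDK9, had the same shape, with a rise of 0.57 at 10 nM over Neg1 and Neg2 and a fall of 0.19 ± 0.06 at the dose step, which was lost without 100 nM replicate 1 (edgeR adjusted p = 0.41) and without any single 30 nM library (0.0695 to 0.0976). The inhibitor HEXIM2 had 1.84, 2.22 and 1.66 CPM at 100 nM and 3.60 to 4.13 CPM at 30 nM, a fall of 1.02 ± 0.21, and MEPCE, which caps 7SK RNA, fell by 0.49 ± 0.08. HEXIM1, by contrast, did not pass the test, with 13.7, 10.2 and 8.25 CPM at 100 nM and 9.09 to 11.2 CPM at 30 nM (log2 fold change 0.09 ± 0.13), and without 100 nM replicate 1 its change was -0.13. It had already been lower at 10 nM than with Neg1 and Neg2, by 1.21 on the log2 scale.

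Other parts of the transcription machinery had both rises and falls, several of them at shares near those of all genes (4.44% rises and 8.45% falls). Among 28 elongation factors, 2 rose (7.14%), the FACT subunit SSRP1 (0.19 ± 0.04) and the DSIF subunit SUPT5H (0.18 ± 0.05), and 4 fell (14.3%), ELL3 (-0.30 ± 0.06), LEO1 (-0.26 ± 0.07) and AFF4 (-0.21 ± 0.07) among them. Among 15 transcriptional CDKs and cyclins, CDK13 fell by 0.27 ± 0.05 and CDK11B rose by 0.20 ± 0.05, and 11 did not pass. Mediator, which joins enhancer-bound factors to polymerase, had 7 falls and 2 rises among 30 members, with falls of MED18 (-0.41 ± 0.12) and MED29 (-0.39 ± 0.09) and a rise of MED12L (0.41 ± 0.08). Of 12 RNA polymerase II subunits 3 rose and 0 fell, POLR2G (0.28 ± 0.07) and POLR2E (0.24 ± 0.06) among them, while the largest subunit POLR2A did not pass (213.6, 257.9 and 250.6 CPM at 100 nM, 219.3 to 252.7 CPM at 30 nM). Without 100 nM replicate 1 the calls of SUPT5H, LEO1, AFF4, CDK11B, MED18 and all 3 polymerase subunits were lost, elongation factors had 1 fall and 1 rise, and Mediator had 3 falls and 1 rise. Elongation factors had 2 falls without 30 nM replicate 1, 3 or 4, SUPT5H lost its call in 5 of the 7 fits that leave out 1 library (edgeR adjusted p of up to 0.108) LEO1 without 30 nM replicate 1 (0.0558), and MED18 without 30 nM replicate 2 or 100 nM replicate 2 (0.0712 and 0.094). With length-scaled counts, CDK13, MED18, MED29 and MED12L did not pass, and Mediator had 1 fall and 0 rises.

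Many mRNAs of immediate early and other short-lived genes fell. Of 35 tested members, 15 fell (42.9%, against 8.45% of all genes) and 0 rose. Their median log2 fold change was -0.31, against -0.01 over all genes tested. Without 100 nM replicate 1, 9 fell and 0 rose, and the same numbers were found with length-scaled counts. JUN, a subunit of the AP-1 factor, had 3.79, 4.27 and 4.31 CPM at 100 nM, against 7.73, 7.15, 6.50 and 7.34 CPM at 30 nM, a log2 fold change of -0.80 ± 0.12. The 2 groups were well apart, and the 100 nM libraries lay close together. DUSP2, a phosphatase of MAP kinases, had 19.2, 26.3 and 31.2 CPM at 100 nM and 38.7 to 47.5 CPM at 30 nM (-0.76 ± 0.11). SGK1, a kinase of the AGC family, fell by 0.59 ± 0.10, ID3, an inhibitor of helix-loop-helix factors, by 0.64 ± 0.13, and the antiproliferative gene BTG1 by 0.51 ± 0.08. MYC had 45.9, 58.2 and 58.7 CPM at 100 nM, against 58.3, 74.7, 76.0 and 68.0 CPM at 30 nM. Its groups overlapped at 30 nM replicate 1, and its fall of 0.35 ± 0.09 was lost without 100 nM replicate 1 (edgeR adjusted p = 0.11), as were those of ATF3, FOSL2, JUNB, IER5 and BTG2. MYC did not pass with length-scaled counts either (0.0931), and ATF3 lost its call without 30 nM replicate 3 or 4 or 100 nM replicate 3 (0.0746, 0.0506 and 0.104). FOS (0.04 ± 0.16), IER2 (-0.07 ± 0.05) and EGR1 (-0.37 ± 0.14) did not pass the test, and EGR1 was low in 100 nM replicate 1 alone (75.9 CPM, against 142.3 and 143.5 CPM in the other 100 nM libraries).

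The unfolded protein and integrated stress responses, in which a sensor of misfolded protein or amino acid shortage raises ATF4 and its targets, had the highest percentage of falls among the 39 lists. Of 23 tested members, 13 fell (56.5%, against 8.45% of all genes) and 1 rose. Without 100 nM replicate 1, 9 fell and 0 rose, and with length-scaled counts 8 fell and 0 rose. DDIT3, which encodes the factor CHOP, had 4.57, 4.92 and 5.91 CPM at 100 nM, against 12.9, 12.7, 10.1 and 10.2 CPM at 30 nM. The log2 fold change was -1.17 ± 0.14 (edgeR adjusted p = 6.7e-06), with no overlap. The gene declined at each step, with means of 37.2 CPM with Neg1, 29.4 CPM with Neg2 and 17.9 CPM at 10 nM. CHAC1, which degrades glutathione, had 5.90, 8.96 and 9.54 CPM at 100 nM and 15.5 to 19.4 CPM at 30 nM (-1.07 ± 0.13). CEBPB, a leucine zipper factor, fell by 0.88 ± 0.10, the endoplasmic reticulum cochaperone DNAJB9 by 0.89 ± 0.16, HERPUD1 by 0.57 ± 0.07 and XBP1, a factor of the response and of plasma cells, by 0.53 ± 0.08. ATF4 itself did not pass, with 368.2, 337.5 and 331.9 CPM at 100 nM and 301.8 to 352.2 CPM at 30 nM. The chaperone HSPA5 fell by 0.18 ± 0.06, a call that was lost without 100 nM replicate 1 (edgeR adjusted p = 0.182), and ASNS, which makes asparagine, rose by 0.18 ± 0.06, also lost without that library (0.28) and without 30 nM replicate 3 or 4 (0.0934 and 0.1).

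Among regulators of apoptosis, the protective gene MCL1 and several genes of death receptor signalling fell. MCL1, a protective BCL2 relative, had 383.7, 453.9 and 456.3 CPM at 100 nM, against 633.8, 604.1, 625.9 and 587.3 CPM at 30 nM. Every 100 nM library was far below every 30 nM library, and the log2 fold change of -0.51 ± 0.05 (edgeR adjusted p = 6.95e-07) was -0.43 without 100 nM replicate 1. Its mean was 684.5 CPM with Neg1, 663.0 CPM with Neg2 and 785.2 CPM at 10 nM, where it was higher than with Neg1 and Neg2 by 0.22 on the log2 scale. Of 11 anti-apoptotic genes 3 fell (27.3%) and 0 rose, with and without that library. The shares of all genes that fell were 8.45% and 3.88% in those fits. The others of the 3 were XIAP (-0.33 ± 0.06) and BIRC3 (-0.30 ± 0.07), which belong to the inhibitors of apoptosis. With length-scaled counts MCL1 alone of these genes fell, and XIAP did not pass (edgeR adjusted p = 0.438). BCL2 was low and did not pass (3.06, 2.75 and 2.59 CPM at 100 nM, 1.86 to 3.49 CPM at 30 nM).

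Of 20 death receptor and caspase genes 4 fell and 0 rose, with and without 100 nM replicate 1. FADD, the adaptor of death receptors, had 16.3, 26.5 and 23.5 CPM at 100 nM and 30.2 to 42.0 CPM at 30 nM, a fall of 0.65 ± 0.13. RIPK1, a kinase of the same complexes, fell by 0.53 ± 0.10, and DIABLO, which relieves caspases of their inhibitors, by 0.29 ± 0.07. The receptor FAS had 6.46, 5.44 and 5.54 CPM at 100 nM, against 10.1, 9.79, 9.62 and 6.04 CPM at 30 nM, a log2 fold change of -0.61 ± 0.15. Its groups overlapped at 30 nM replicate 4, it overlaps ACTA2, with which it may share reads, and it did not pass with length-scaled counts (edgeR adjusted p = 0.222), with which 2 of the 20 genes fell. Of 14 pro-apoptotic BCL2 relatives 1 fell (7.14%, near the 8.45% of all genes), BCL2L11, which encodes BIM (109.3, 139.8 and 135.7 CPM at 100 nM, 142.1 to 155.7 CPM at 30 nM, -0.22 ± 0.06). That call was lost without 100 nM replicate 1 (edgeR adjusted p = 0.254) and without 30 nM replicate 1 (0.0586), and it did not pass with length-scaled counts (0.0665). PMAIP1 (-0.19 ± 0.07), BMF (-0.38 ± 0.14) and BBC3 (0.21 ± 0.14), all BH3-only genes, did not pass.

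Of 26 p53 targets 6 fell (23.1%, against 8.45% of all genes) and 0 rose. Without 100 nM replicate 1, 2 fell (7.69%, against 3.88%). MDM2, the ubiquitin ligase that degrades p53, had 184.5, 185.9 and 198.2 CPM at 100 nM and 230.9 to 256.7 CPM at 30 nM, a fall of 0.33 ± 0.05 without overlap. With length-scaled counts it did not pass (edgeR adjusted p = 0.0757), and 1 of the p53 targets fell. CDKN1A, the CDK inhibitor p21, did not pass, with 14.7, 15.9 and 14 CPM at 100 nM and 12.7 to 16.2 CPM at 30 nM. CDKN1B, the inhibitor p27, had averaged 33.9 CPM with Neg1, 32.1 CPM with Neg2 and 69.8 CPM at 10 nM. At the dose step it did not pass, with 95.2, 101.9 and 95.2 CPM at 100 nM and 79.3 to 100.8 CPM at 30 nM (0.13 ± 0.08). FOXO1, a forkhead factor of germinal centre B cells, had 81.9, 96.3 and 97.9 CPM at 100 nM and 125.9 to 140.8 CPM at 30 nM, a fall of 0.52 ± 0.06.

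BCL6 itself did not pass the test at the dose step, with 311.4, 340.6 and 354.5 CPM at 100 nM, against 323.1, 336.5, 337.4 and 332.0 CPM at 30 nM (log2 fold change 0.01 ± 0.04). The groups overlapped fully. Of 33 genes known to be repressed by BCL6, 5 fell (15.2%, against 8.45% of all genes) and 0 rose. Without 100 nM replicate 1 edgeR called none of them (0 falls and 0 rises, with 5 falls and 1 rise at an unadjusted p under 0.05). With all libraries DESeq2 called 6 falls and 0 rises. Among the 5 were TLR9, a receptor for DNA (-0.41 ± 0.13), MYC, JUNB and BCL2L11, and TLR9 also lost its call without 30 nM replicate 2 or 3 (edgeR adjusted p = 0.0702 and 0.0654). PRDM1, the plasma cell factor that BCL6 represses, stayed at 1.11 CPM or less in all 7 libraries. CD69, an activation marker on the same list, had averaged 33.2 CPM with Neg1, 30.2 CPM with Neg2 and 80.4 CPM at 10 nM, and at the dose step it did not pass (44.8, 50.9 and 66.7 CPM at 100 nM, 58.1 to 71.7 CPM at 30 nM). Among 19 corepressor genes HDAC1 rose by 0.21 ± 0.04 and the Polycomb adaptor RYBP fell by 0.44 ± 0.08.

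Most B cell genes did not pass the test, and the changes of those that did were small. In the B cell receptor pathway 7 of 21 members rose (33.3%, against 4.44% of all genes) and 0 fell. Without 100 nM replicate 1, 2 rose (9.52%, against 0.873%), and 4 rose without 30 nM replicate 3. With length-scaled counts 1 rose (4.76%, against 1.36%). PLCG2, the phospholipase of the pathway, had 657.9, 616.7 and 626.9 CPM at 100 nM and 518.1 to 575.8 CPM at 30 nM (0.21 ± 0.04), and the adaptor GRB2 had 629.1, 606.0 and 567.4 CPM at 100 nM and 501.4 to 530.2 CPM at 30 nM (0.21 ± 0.04). These 2 kept their call without 100 nM replicate 1, while CD79A, BLK, BLNK and RASGRP3 lost it. CD79A also lost it without 30 nM replicate 3 (edgeR adjusted p = 0.0667). With library totals the median of this list turned to -0.01, with 2 rises and 1 fall. Of 13 MHC class II genes 3 rose (23.1%, against 4.44% of all genes). The invariant chain CD74 (0.23 ± 0.04) and HLA-DRB5 (0.27 ± 0.06) rose with and without 100 nM replicate 1. These 2 made up 15.4% without that library, against 0.873% of all genes, and 5 of the 13 rose without 100 nM replicate 3. Among 33 germinal centre genes 3 fell (9.09%, near the 8.45% of all genes) and 5 rose (15.2%, against 4.44%). With library totals 7 fell and 0 rose. The number of rises was 1 to 7 when 1 library was left out (1 without 100 nM replicate 1 or 30 nM replicate 3). S1PR2, the receptor that confines these cells to the follicle, fell by 0.35 ± 0.07 (65.8, 87.0 and 77.3 CPM at 100 nM, 93.5 to 100.9 CPM at 30 nM). NF-kB targets had 4 falls and 0 rises among 20, but 2 falls without 100 nM replicate 1 and 2 with length-scaled counts. CD83 had the largest fall of these (5.96, 5.56 and 6.09 CPM at 100 nM, 8.37 to 10.6 CPM at 30 nM, -0.67 ± 0.11). IRF1 fell by 0.74 ± 0.12 (10.9, 17.2 and 13.7 CPM at 100 nM, 21.9 to 26.2 CPM at 30 nM), while 28 of 31 interferon-stimulated genes did not pass.

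Cell cycle genes split. Of 29 G2/M genes 9 fell (31.0%, against 8.45% of all genes) and 2 rose. Without 100 nM replicate 1, 4 fell (13.8%, against 3.88%) and 0 rose, and with length-scaled counts 3 fell. AURKA, a kinase of the mitotic spindle, had 86.2, 89.9 and 86.2 CPM at 100 nM and 108.1 to 117.9 CPM at 30 nM (-0.37 ± 0.05), and TTK, a kinase of the spindle checkpoint, fell by 0.59 ± 0.10, while PLK1 and CCNB1 did not pass (0.05 ± 0.06 and -0.01 ± 0.05). Of 26 genes of G1/S and replication 5 fell (19.2%) and 4 rose (15.4%, against 4.44% of all genes). Without 100 nM replicate 1, 3 fell (11.5%, against 3.88%) and 0 rose. CCNE2, a cyclin of S phase entry, had 12.4, 12.6 and 12.9 CPM at 100 nM and 17 to 20 CPM at 30 nM (-0.59 ± 0.08), and the replication licensing factor CDC6 fell by 0.37 ± 0.06. TTK and CCNE2 did not pass with length-scaled counts (edgeR adjusted p = 0.138 and 0.0952), with which 2 genes of G1/S and replication fell. The rises, MCM2, MCM5, TYMS and CCND3, were of at most 0.18 on the log2 scale and were lost without 100 nM replicate 1. Among 28 DNA damage genes the repair factors FANCM (-0.63 ± 0.13) and BRCA2 (-0.36 ± 0.07) fell, neither of which passed with length-scaled counts (0.112 and 0.671), and PARP1 rose by 0.19 ± 0.04. Of 32 tested replication-dependent histone genes, 0 passed by edgeR or DESeq2, and 2 were higher and 0 lower at an unadjusted p under 0.05 by edgeR. Their share of all counts was 0.00960 ± 0.000460% at 100 nM (SD, n = 3) and 0.00947 ± 0.000338% at 30 nM (SD, n = 4).

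Several genes for making ribosomes fell, while mRNAs of ribosomal proteins rose with all libraries. Of 40 ribosome biogenesis genes 9 fell (22.5%, against 8.45% of all genes) and 1 rose. There were 7 falls without 100 nM replicate 1 (17.5%, against 3.88%) and 6 with length-scaled counts. URB2 (ENSG00000135763, chromosome 1, 229626234 to 229660199) had 29.4, 38.2 and 45.9 CPM at 100 nM, against 66.5, 65.3, 70.0 and 62.8 CPM at 30 nM, a fall of 0.81 ± 0.09 on the log2 scale (edgeR adjusted p = 3.8e-06). POLR1B, the second largest subunit of the polymerase that transcribes ribosomal DNA, fell by 0.49 ± 0.08 and the processome component UTP15 by 0.59 ± 0.09. Of 51 cytosolic ribosomal protein genes 29 rose (56.9%, against 4.44% of all genes) and 0 fell, with a median of 0.21. Without 100 nM replicate 1 only 1 rose (1.96%, against 0.873%), while 14 rose without 30 nM replicate 3 and 47 without 100 nM replicate 3. RPS2 had 4847.5, 4273.2 and 3743.7 CPM at 100 nM and 3292.9 to 3752.2 CPM at 30 nM, so that its groups overlapped. Of 13 mitochondrial mRNAs 10 rose (76.9%) and 0 fell, with a median of 0.27. Without 100 nM replicate 1, 2 rose (15.4%), MT-ND1 (0.31 ± 0.05) and MT-ND2 (0.30 ± 0.05). With library totals 8 ribosomal protein genes and 7 mitochondrial mRNAs rose, and with length-scaled counts 15 and 8. Mitochondrial mRNAs took 6.47 ± 0.389% of the counts at 100 nM (n = 3) and 5.8 ± 0.188% at 30 nM (n = 4), a difference that did not pass a two-sided exact permutation test (p = 0.114, adjusted p = 0.16 over 7 library measures), whose smallest possible p with 3 against 4 libraries is 0.0571. Entries of long non-coding genes took 1.82 ± 0.0954% at 100 nM and 1.49 ± 0.0567% at 30 nM, and retained-intron transcripts 2.86 ± 0.0583% at 100 nM and 3.04 ± 0.121% at 30 nM. Of the long non-coding entries, 3 that lie in the ribosomal DNA repeat and have the same values held 1893.8 CPM each at 100 nM and 960.0 CPM each at 30 nM, and MIR663AHG 808.2 CPM at 100 nM and 320.8 CPM at 30 nM, while of all 3233 long non-coding genes tested 0.928% rose and 1.39% fell. The shares of counts from long non-coding genes and from retained-intron transcripts both reached that smallest p without overlap between the groups (exact permutation, adjusted p = 0.133). So did the number of genes with at least 10 counts, 14202 to 14337 at 100 nM and 14550 to 15572 at 30 nM. That number was not adjusted for library totals.

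**Figure D3:**
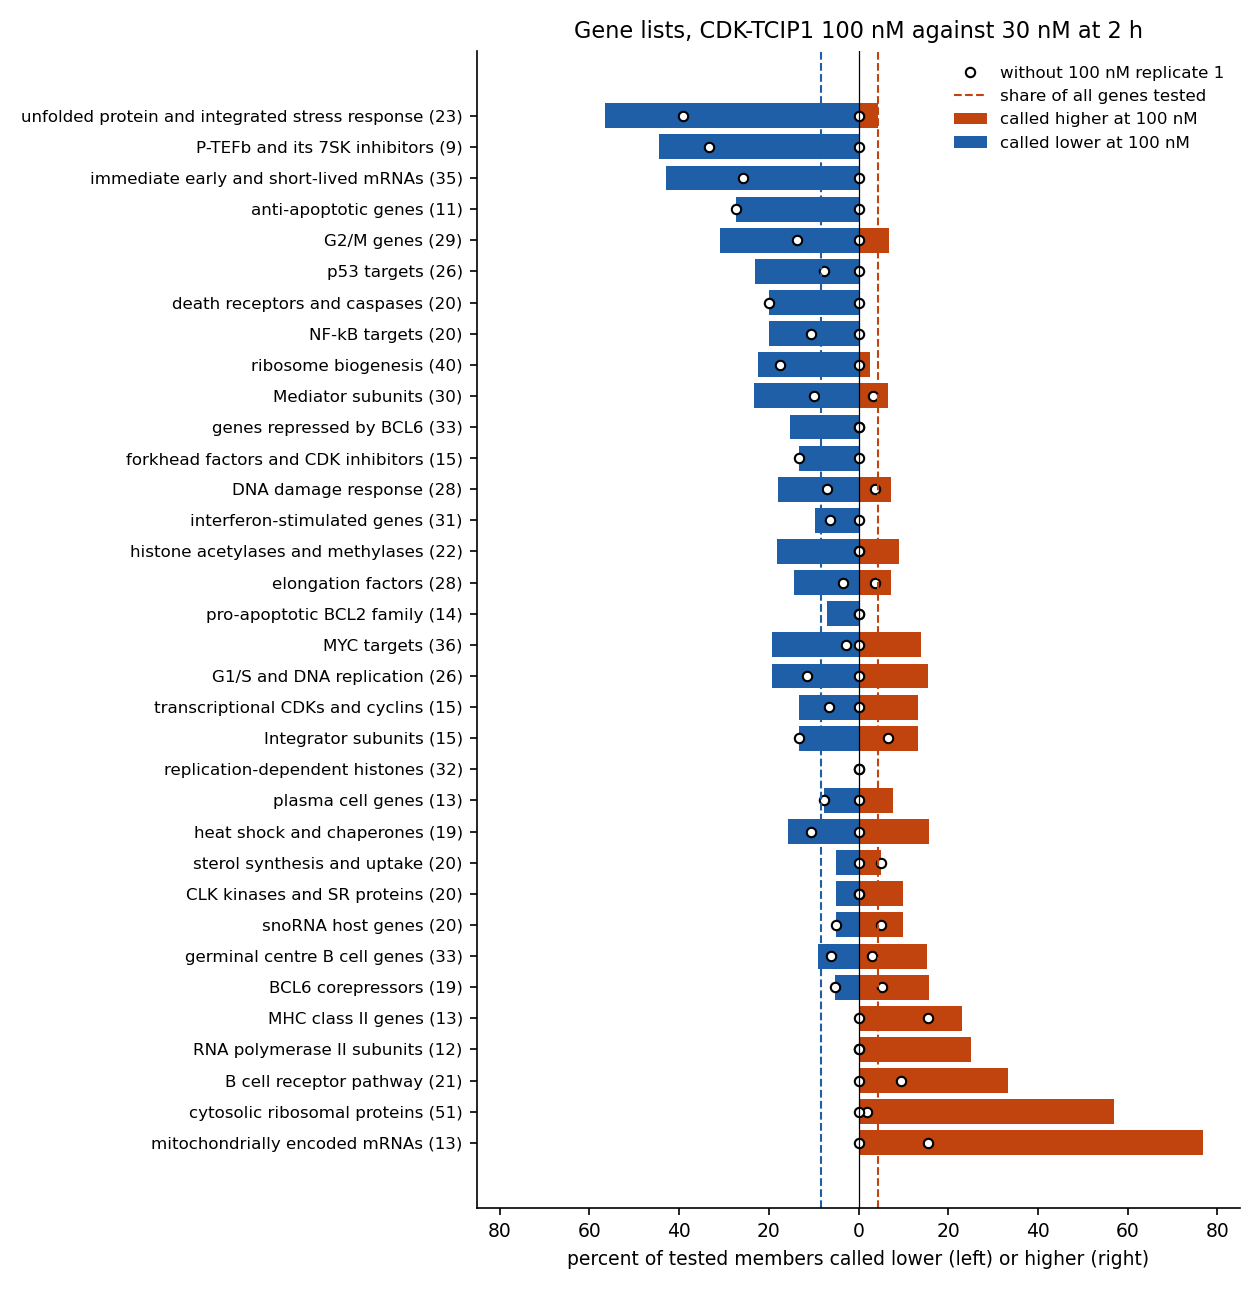
Percent of the tested members of each gene list (number tested in brackets) called lower (blue, to the left) or higher (orange, to the right) at 100 nM than at 30 nM, with open circles for the percent called without 100 nM replicate 1 and dashed lines for the 8.45% and 4.44% of all genes tested. Stress response, P-TEFb and short-lived lists reach furthest to the left and ribosomal protein and mitochondrial lists furthest to the right, while without 100 nM replicate 1 the ribosomal protein circle lies at 1.96% and the mitochondrial one at 15.4%.

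Zinc finger genes and genes with few exons fell more often than others. Of 453 genes with a ZNF symbol, most of which encode KRAB or other C2H2 repressors, 141 fell (31.1%) and 2 rose, with a median of -0.32, against 11% falls among all 12991 protein-coding genes. Without 100 nM replicate 1, 59 of 451 fell (13.1%), against 5.16% of protein-coding genes. With length-scaled counts 12.8% of ZNF genes fell, against 4.45% of protein-coding genes. The share was much the same for the 228 ZNF genes on chromosome 19, where 32.0% fell, and for the 225 elsewhere, where 30.2% fell. Of 53 ZSCAN and ZBTB genes 20 fell (37.7%) and 1 rose, against 9 falls (17%) and 0 rises without 100 nM replicate 1 and 8 falls (15.1%) with length-scaled counts. The 5 largest falls among ZNF genes, picked after their values were seen, were of ZNF484, ZNF572, ZNF619, ZNF616 and ZNF429. ZNF484 had 1.95, 2.28 and 3.63 CPM at 100 nM and 5.01 to 6.72 CPM at 30 nM (-1.18 ± 0.20), and ZNF429 had 7.30, 8.14 and 9.17 CPM at 100 nM and 12.1 to 20.8 CPM at 30 nM (-0.99 ± 0.13). ZNF572 (-1.17 ± 0.28) lost its call without 100 nM replicate 1 (edgeR adjusted p = 0.0869). ZNF genes resemble each other in sequence, so reads may be split between them.

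By the exon number of the transcript with the most exons, a grouping set after the data had been seen, 43 of 224 single-exon protein-coding genes fell (19.2%), 336 of 1854 genes with 2 to 4 exons (18.1%), 545 of 4460 with 5 to 9 exons (12.2%) and 504 of 6453 with 10 or more exons (7.81%). Rises made up 4.91, 2.43, 6.23 and 6.14% of the same groups in that order. Rises were 0.893, 0.163, 0.652 and 1.48% without 100 nM replicate 1. The order of the falls was the same without that library, at 10.7, 9.24, 5.89 and 3.29%, and with length-scaled counts, at 13.4, 8.83, 4.94 and 2.53%. Single-exon genes with large falls, beside PLPP6 and KBTBD7, were BORCS6 of a lysosome-positioning complex (2.34, 3.10 and 2.83 CPM at 100 nM, 5.62 to 6.30 CPM at 30 nM, -1.13 ± 0.19), the oxygenase RIOX1 (-1.10 ± 0.17) and HPS6, mutated in Hermansky-Pudlak syndrome (-1.01 ± 0.19). Their levels were low, and the part of level in these shares was not tested.

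**Figure D4:**
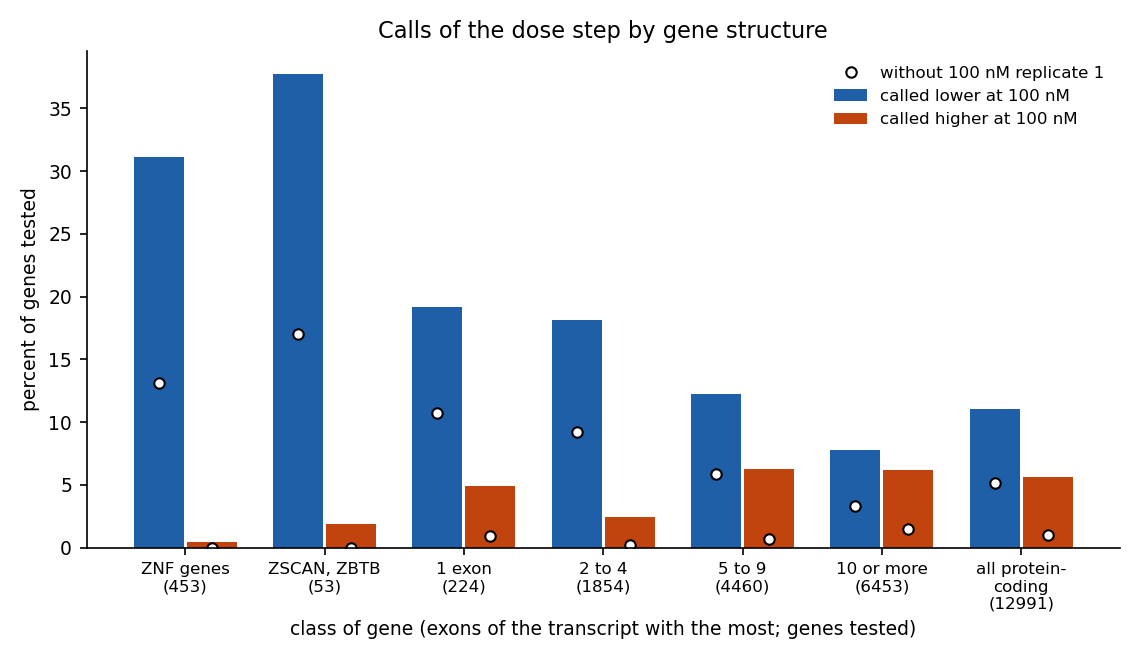
Percent of genes called lower (blue bars) and higher (orange bars) at 100 nM than at 30 nM in each class of gene, with the number tested under each class and open circles for the fit without 100 nM replicate 1. Falls reach 31.1% of ZNF genes and decline from 19.2% of single-exon genes to 7.81% of genes with 10 or more exons.

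The dose step was also read in genes grouped by comparisons that share no library with it. CDK-TCIP1 at 10 nM against the mean of Neg1 and Neg2 at 2 h raised 1204 genes (6.79% of 17743) and lowered 1199 (6.76%). Without 10 nM replicate 1 those counts were 518 and 460, and without 10 nM replicate 2 they were 523 and 632. Of the genes raised at 10 nM, 205 rose again at the dose step (17%) and 106 fell (8.80%), and of the genes lowered at 10 nM, 300 fell again (25.0%) and 44 rose (3.67%). Among the 15340 genes not called at 10 nM, 3.51% rose and 7.13% fell at the dose step. Genes raised at 10 nM thus made up 26% of the rises and 7.07% of the falls of the dose step, and genes lowered at 10 nM made up 5.58% of the rises and 20% of the falls. With library totals, which shift all genes downward, 57 of the genes raised at 10 nM rose and 179 fell, and 9 of those lowered at 10 nM rose and 443 fell. MCL1, CDK9, CCNT1 and CCNL1, a cyclin of splicing kinases, were among the 106 that were higher at 10 nM and lower at the dose step, and CCNL1 (-0.28 ± 0.08) lost its call without 100 nM replicate 1 or 30 nM replicate 3 (edgeR adjusted p = 0.219 and 0.0674). Without 100 nM replicate 1 the 205 rises and 106 falls among genes raised at 10 nM became 70 (5.81%) and 49 (4.07%), and the 44 rises and 300 falls among genes lowered at 10 nM became 7 (0.584%) and 171 (14.3%). The genes not called at 10 nM then had 0.505% rises and 3.05% falls.

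CDK-TCIP1 at 30 nM against DMSO at 4 h raised 3113 genes (17.5%) and lowered 3422 (19.3%). Of those raised at 4 h, 289 rose (9.28%) and 355 fell (11.4%) at the dose step, and of those lowered at 4 h, 147 rose (4.30%) and 418 fell (12.2%). Among the 11208 genes not called at 4 h, 3.14% rose and 6.48% fell, so that the share of rises among genes lowered at 4 h was near that of all genes (4.44%). The genes raised at 4 h had 83 rises and 163 falls without 100 nM replicate 1, and those lowered at 4 h had 23 rises and 208 falls. URB2, ZSCAN26, ZBTB3 and FOXO1 passed at the dose step but not at 10 nM or at 4 h, where their log2 fold changes were between -0.23 and 0.06. URB2 at 4 h and FOXO1 at 10 nM were close to the threshold (edgeR adjusted p = 0.0538 and 0.0684). URB2 averaged 97.6 CPM with Neg1, 99.3 CPM with Neg2 and 66.1 CPM at 30 nM for 2 h. FOXO1 averaged 172.2, 179.4 and 131.7 CPM in the same groups, so both were lower before the dose step. The splicing factors SRSF3 and SRSF1 changed direction. Both were lower at 10 nM (-0.41 and -0.20) and at 4 h (-1.13 and -0.52), and rose at the dose step by 0.21 ± 0.06 and 0.16 ± 0.04, calls that were lost without 100 nM replicate 1 (edgeR adjusted p of 0.306 and 0.0818) and did not pass with length-scaled counts. SRSF3 also lost its call without 30 nM replicate 3 or 4 (0.0848 and 0.0859).

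**Figure D5:**
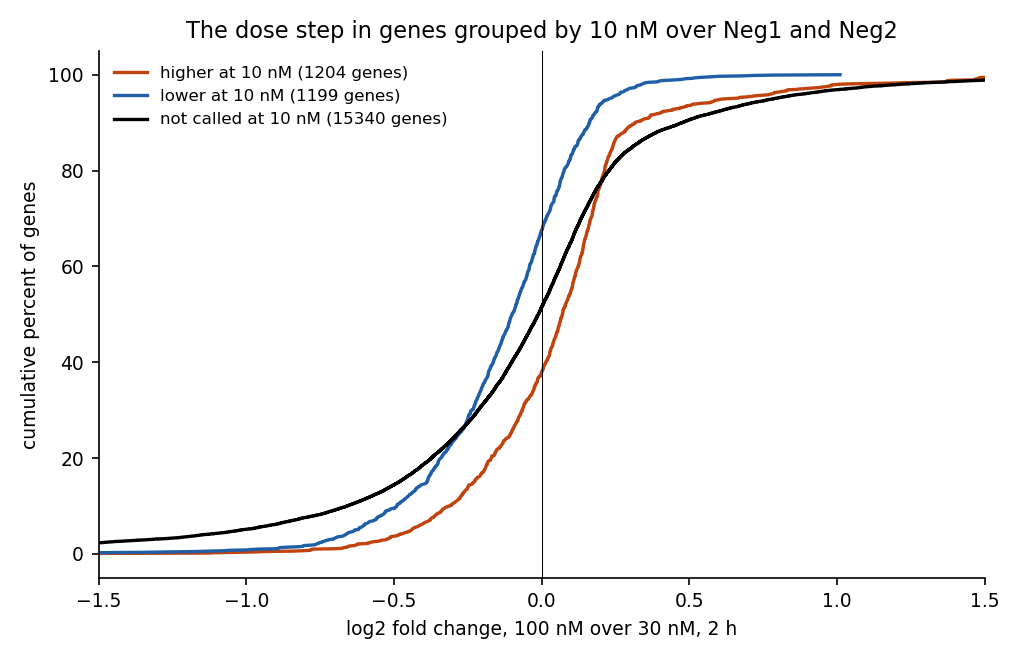
Cumulative percent of genes (vertical axis) by log2 fold change of 100 nM over 30 nM at 2 h (horizontal axis, cut at 1.5 either way), for genes higher (orange, 1204), lower (blue, 1199) or not called (black, 15340) at 10 nM against Neg1 and Neg2. The orange line crosses 50% at 0.07 and the blue line at -0.10, so genes higher at 10 nM lie to the right of genes lower at 10 nM over most of the range.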

How the data were processed

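Poly(A) RNA-seq of 23 SUDHL5 libraries was used. The authors deposited kallisto tables with, per transcript, an estimated count (reads shared among compatible transcripts) and TPM (length-normalized abundance, which sums to the same total in every library), per the file headers. FastQC, cutadapt, kallisto and DESeq2 are named in the submitters' processing notes. For versions, genome build, annotation and strandedness, the labels and notes name nothing: not given in the sources used here. TPM values entered only the length-scaled alternative.

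Estimated counts of 205964 of 227912 transcripts matched GENCODE 29 and were summed over 58592 genes, named by 58201 current symbols, and rounded. Totals were 17396484 to 26373153 per library, and a gene's precision depends on its count. Genes kept by filterByExpr (17743) were tested in 1 fit of all libraries by group (edgeR 4.0.16 in R 4.3.3, TMM, quasi-likelihood F test, Benjamini-Hochberg adjustment over all genes, threshold 0.05). The spread had 14 residual degrees of freedom and a common biological coefficient of variation of 0.0988. Each standard error was obtained from the log2 fold change and its F statistic (their ratio after taking the root of F). CPM values use TMM. The same code was tested on simulated counts first.

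The libraries and gene lists were chosen with earlier results of these data known. Genes named by rule were the 10 largest protein-coding rises and falls that were called, averaged 2 or more in log2 CPM and did not overlap between groups, up to 2 called members each way per list, and 18 genes taken whatever their values (BCL6, PRDM1, CD69; CDK9, CCNT1, HEXIM1, POLR2A; MYC, FOXO3, CDKN1A, CDKN1B; MCL1, BCL2, BCL2L11, BBC3, PMAIP1, BMF, FAS). Other list members named were picked after their values were seen. Exon-number groups, ZSCAN and ZBTB genes and ribosomal DNA and MIR663 entries were also set after the data had been seen. Library measures were compared by a two-sided exact permutation test. Alternatives were other size factors, library totals, DESeq2 1.42.0, 2 other count filters, only the groups compared, length-scaled counts, a replicate block and leaving out libraries. Libraries of Neg1 and Neg2 at 4 h entered only the estimate of spread. A few results are not reported here. Any DMSO library of 2 h was not analysed here.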

Additional observations from a re-analysis of the deposited data

Results flagged for a closer look

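In the 30 nM group, which has 4 libraries, 133 values were checked. In 6 of them, all of named genes, 1 library lay far from the other 3. The gap over the group's range was above the critical value of Dixon's test at 95%. Chance gives such a gap in about 1 in 20 groups. FAS was 6.04 CPM in 30 nM replicate 4, against 9.62 to 10.1 CPM in the other 30 nM libraries. PLPP6 was 5.29 CPM in 30 nM replicate 2, against 3.12 to 3.45 CPM in the others. MDM2 (256.7 CPM, others 230.9 to 234.7 CPM), FANCM (19.1 CPM, others 15.5 to 15.7 CPM) and MT-ND6 (495.3 CPM, others 533.9 to 537.8 CPM) stood apart in 30 nM replicate 3. CCNE2 was 17 CPM in 30 nM replicate 1, against at least 19.5 CPM in the others. All 6 genes passed the test at the dose step, MT-ND6 upward and the other 5 downward.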

How the results depend on the processing

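The 788 rises and 1499 falls at 100 nM over 30 nM became 180 and 2399 with library totals, 243 and 597 with length-scaled counts, 382 and 823 with only the groups compared in the fit, and 150 and 752 without 100 nM replicate 1 and Neg2 2 h replicate 1 together. DESeq2 gave 1257 rises. Leaving out 1 library gave 154 to 1143 rises and 685 to 1680 falls. The 1204 rises and 1199 falls at 10 nM became 581 and 469 with length-scaled counts, 744 rises with only the groups compared, and 518 to 1303 and 460 to 1116 when 1 library was left out, and the 3113 rises at 4 h became 2041 with length-scaled counts. With a replicate block the dose step had 697 rises and 1424 falls, of which 607 and 1313 were also called without it. Same-numbered libraries deviated together in only 1 of 3 pairs (correlations of -0.02, 0.01 and 0.21), so the numbers were not taken to pair samples. Of 114 named genes called, 112 stayed called with DESeq2 size factors in edgeR, 98 without a filter, 79 with library totals, 52 with length-scaled counts and 78 where the fit held the 2 groups alone. The cause of these differences was not tested. Among called genes only INTS1 changed sign, at -0.02 with length-scaled counts. The other changes of sign were of genes that did not pass the test. BCL6 was at -0.07 with library totals, 0.00 without a filter and -0.03 to 0.07 with 1 library left out. HEXIM1 was at 0.00 with library totals, -0.14 without both libraries and -0.13 to 0.25 with 1 left out. POLR2A was at -0.04 with library totals and 0.00 to 0.13 with 1 left out. CDKN1A was at -0.08 with library totals, -0.01 without a filter or with the stricter one, and -0.06 to 0.05 with 1 left out. PRDM1 ranged from -0.08 to 1.05 with 1 left out. The histone share differed by -0.000126 to 0.000316 percentage points with 1 left out. Genes with few counts, such as PRDM1, are limited by depth.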

Other observations

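Of 19 tested heat shock and chaperone genes 3 fell and 3 rose (15.8% each, against 8.45% and 4.44% of all genes). Without 100 nM replicate 1 there were 2 falls (10.5%, against 3.88%) and 0 rises. DNAJB1, a cochaperone of the HSP70 family, had 59.0, 86.3 and 87.6 CPM at 100 nM, against 111.5, 120.5, 109.5 and 100.0 CPM at 30 nM, a log2 fold change of -0.51 ± 0.10 (edgeR adjusted p = 0.000978) that was called in all 7 fits leaving out 1 library and with length-scaled counts. Its groups did not overlap. DNAJB4 fell by 0.43 ± 0.08, and HSPA1B, an inducible HSP70, by 0.48 ± 0.13, the second a call lost without 100 nM replicate 1 (edgeR adjusted p = 0.193). The rises of HSP90AB1 (0.16 ± 0.04), STIP1 (0.14 ± 0.05) and HSF1 (0.19 ± 0.06) were all lost without that library (0.0502, 0.14 and 0.243).

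Integrator cleaves nascent RNA at promoters and at small nuclear RNA genes. Of its 15 subunits tested, 2 fell and 2 rose (13.3% each, against 8.45% and 4.44% of all genes). The rises were of INTS1 (0.21 ± 0.05) and INTS3 (0.20 ± 0.07), and INTS15 fell by 0.28 ± 0.07. INTS3 lost its call in all 7 fits leaving out 1 library, and INTS1 was at -0.02 with length-scaled counts. INTS5 had 20.8, 24.1 and 22.8 CPM at 100 nM, against 37.2, 33.6, 31.9 and 29.7 CPM at 30 nM. It fell by 0.55 ± 0.08 with no overlap and was called in all 7 fits leaving out 1 library. Among 20 hosts of small nucleolar RNAs, SNHG12 fell by 0.53 ± 0.11 (17.9, 23.4 and 26.2 CPM at 100 nM, 28.8 to 37.9 CPM at 30 nM), while SNHG1 had 181.4, 138.6 and 146.1 CPM at 100 nM and 104.4 to 129.8 CPM at 30 nM, a rise of 0.41 ± 0.09 that was lost without 100 nM replicate 1 (edgeR adjusted p = 0.0548). The acetylase EP300 had 87.8, 138.5 and 138.4 CPM at 100 nM, all below the 156.3 to 176.3 CPM at 30 nM. Its fall of 0.43 ± 0.11 was -0.25 without 100 nM replicate 1, where the call was lost (0.0785), and it was called with length-scaled counts (-0.59, 0.0098). In sterol synthesis, LSS rose by 0.31 ± 0.07.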
